A study of Mus musculus with 15 samples.

Results

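RNA recovered with an antibody against Dnmt1 was compared between homozygous (Hom) and heterozygous (Het) mouse tail fibroblasts that carry a dominant mutation in Dnmt1. These are 4 of the 15 libraries of the series, 2 Hom and 2 Het, chosen by their genotype and antibody labels. The other Dnmt1 libraries, 2 from wild type (WT) littermates, entered the fit only as a further measure of spread between libraries. Every line came from the tails of littermates of one gender, cells of all genotypes were fixed with formaldehyde at 1%, and the same rabbit antibody was used throughout. Neither the base change nor the age of the mice is stated in the labels. The labels do not say whether the libraries of a genotype came from separate cultures, and p-values therefore rest on library-to-library variation that could be technical. No input library of each genotype was analysed here, so less RNA bound, less RNA per cell and fewer expressing cells cannot be told apart.

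Dnmt1 copies DNA methylation onto the new strand after replication, a task for which it is recruited to hemimethylated DNA by Uhrf1. The enzyme also binds RNA, and RNA immunoprecipitation (RIP) of fixed cells recovers transcripts attached to it directly or through chromatin and other proteins. Fibroblasts secrete and organise the extracellular matrix, and answer serum or injury with immediate early genes, which need no new protein synthesis to be transcribed.

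Counts in genes were 1029457 and 1362757 in the Hom libraries and 814262 and 804887 in the Het libraries. The transcripts Lars2, Gm42418, Gm26917 and Gm10800, which took large and uneven shares of reads, held 63.5% of Hom library 1 against 12.7% of Hom library 2, 26.5% of Het library 1 and 5.70% of Het library 2. They were set aside, which left 376192 and 1190173 counts in Hom and 598537 and 758970 in Het; the WT libraries held 193196 and 345638. Levels below are normalised CPM, the remaining counts scaled to a common library size (counts per 1e6) with TMM factors, and 3 counts correspond to 8.01 and 2.83 normalised CPM in Hom and to 6.0 and 4.36 in Het. The libraries did not sort by genotype over all genes. Pearson's r of log2 levels was 0.742 between the Hom libraries and 0.717 between the Het libraries, and 0.788 and 0.789 between Hom library 2 and the Het libraries. The fibroblast label was checked against 12 markers, 11 of which passed the filter on low counts and all of which were detected in each Hom and Het library. Their summed level was 1566 and 3652 normalised CPM in Hom, against 27705 and 10074 in Het. Col1a1, Col1a2 and Col3a1 made up most of both Het sums and also belong to the matrix lists below, so this difference is not separate from theirs. The median of the 12 markers was 109 and 150 in Hom and 211 and 283 in Het. A list of 15 neuron markers summed to 6012 and 4968 in Hom and to 5085 and 4583 in Het, above the fibroblast markers in both Hom libraries; the source of these reads was not tested.

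Whether Hom and Het cells differ in the RNA recovered was tested over 12302 genes with edgeR's quasi-likelihood test. It called 0 genes at an adjusted p under 0.05 (0.0%), and the smallest adjusted p was 0.977. At an unadjusted p under 0.05 there were 403 genes lower in Hom (3.28%) and 158 higher in Hom (1.28%). Estimates were split evenly, with 6177 lower in Hom (50.2%) and 6125 higher (49.8%). Both Hom libraries lay below both Het libraries for 1999 genes (16.2%) and above them for 2282 (18.5%). DESeq2, run as an alternative, called 15 genes (0.122%), all of them lower in Hom, and gave no adjusted p for 8348 genes. edgeR itself called 47 genes without Het library 2 and 119 with no filter on low counts. The 403 lower genes became 153 without Hom library 1, and the 158 higher genes became 84 without Hom library 2. With 2 libraries against 2, an exact permutation test of a single gene cannot go below 0.333, so fold changes are given with their standard errors and the percentages above serve as the background for each gene group.

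**Figure D1:**
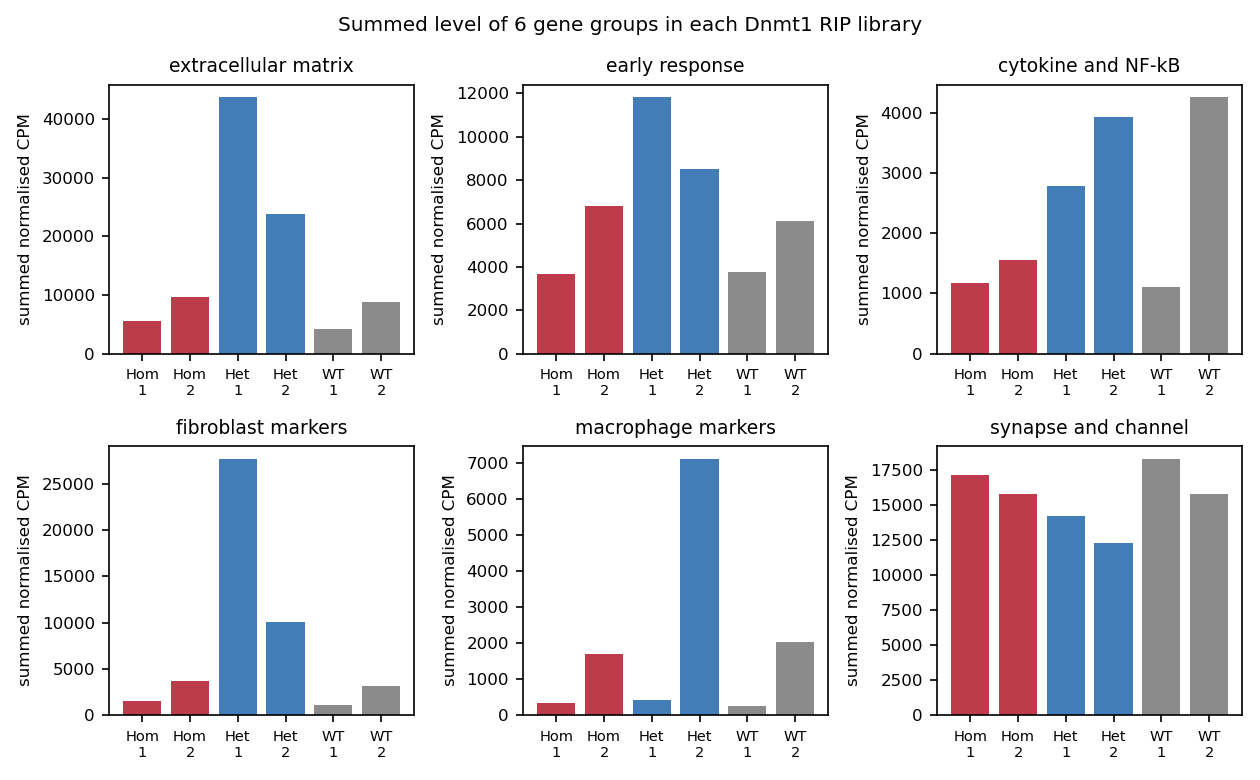
Summed normalised CPM of 6 gene groups (y axis, linear, from 0) in the Hom (red), Het (blue) and WT (grey) Dnmt1 RIP libraries 1 and 2; each bar is 1 library. Matrix genes summed to 5633 and 9672 in Hom and to 43786 and 23776 in Het, while macrophage markers were highest in Het library 2 alone. The fibroblast marker panel shares Col1a1, Col1a2 and Col3a1, most of its Het sums, with the matrix panel.

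Most genes of the extracellular matrix had lower estimates in Hom than in Het, although none passed the adjusted threshold of edgeR. Of 94 genes in 5 matrix lists, 90 passed the filter; 67 had a lower estimate in Hom, 32 of them at an unadjusted p under 0.05, and 0 had a higher estimate at that p. Both Hom libraries lay below both Het libraries for 45 of the 90 (50%, against 16.2% of all genes) and above them for 10. The median log2 fold change was -1.02, against 0.00 over all genes, and between -1.33 (without Hom library 2) and -0.66 (without Het library 1) when 1 library was left out. Summed over all 94 genes the matrix lists reached 5633 and 9672 normalised CPM in Hom, against 43786 and 23776 in Het and 4249 and 8789 in WT. Both WT libraries, like both Hom libraries, lay below both Het libraries.

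Fibrillar collagens, which form the load-bearing fibres of skin and tendon, summed to 1579.7 and 3378 normalised CPM in Hom and to 30199 and 9711 in Het. Of 11 tested, 8 had a lower estimate and 7 had both Hom libraries below both Het libraries (63.6%, against 16.2% of all genes). Their median was -1.49, and -2.40 without Het library 2, -2.31 without Hom library 1 and -0.85 without Het library 1. Col1a1 (chromosome 11, 94936224 to 94953042, plus strand), the main chain of type I collagen, stood at 347 and 1509 normalised CPM in Hom, against 17089.7 and 4461 in Het (log2 fold change -3.53 ± 1.12, SE). Its partner chain Col1a2 (chromosome 6, 4504814 to 4541544, plus strand) stood at 264 and 687 normalised CPM in Hom, against 6116 and 2185 in Het (-3.12 ± 0.98). For both chains the groups did not overlap, and within each genotype the libraries also stood apart, with Het library 1 and Hom library 2 the higher ones. Col3a1 (chromosome 1, 45311538 to 45349706, plus strand), the chain of type III collagen, stood at 152 and 262 normalised CPM in Hom, against 2398 and 1308 in Het (-3.15 ± 0.81). Of the type V chains, which start and thin collagen fibrils, Col5a1 had 147 and 292 in Hom and 2218 and 585 in Het (-2.66 ± 0.70). Col5a2 had 168 and 219.7 in Hom and 1571 and 722 in Het (-2.56 ± 0.73). In all 5 of these chains the groups were separated by more than 2-fold between their nearest libraries. They were named for their small p, so this separation was partly fixed by the choice. Of the 11 tested chains 5 showed such a gap (45.5%), against 163 of all tested genes (1.32%). For 3 of the 11 both Hom libraries lay above both Het libraries (27.3%, against 18.5% of all genes). Col2a1 and Col11a2, chains of cartilage collagen, and Col24a1 were the fibrillar chains with a higher estimate in Hom (0.99, 0.76 and 0.36; chosen after their values were seen); none of the 3 had an unadjusted p under 0.05.

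The promoters of Col1a2 and Col3a1 are shown because these chains, with Col1a1, had the lowest estimates among the fibrillar collagens. The sequences are RefSeq's, on GRCm38.p6, and run from 250 bases before to 50 bases after the annotated start, 5′ to 3′ on the gene's strand. Capitals mark CCAAT, the letters of the box that NF-Y binds, in Col1a2 (chromosome 6, 4505368 to 4505667, plus strand), at position -109 from the start and, on the opposite strand, at the start itself (position 0). In Col3a1 (chromosome 1, 45311288 to 45311587, plus strand) they mark TATAAA at position -117, which is farther from the start than a TATA box usually lies.
Col1a2: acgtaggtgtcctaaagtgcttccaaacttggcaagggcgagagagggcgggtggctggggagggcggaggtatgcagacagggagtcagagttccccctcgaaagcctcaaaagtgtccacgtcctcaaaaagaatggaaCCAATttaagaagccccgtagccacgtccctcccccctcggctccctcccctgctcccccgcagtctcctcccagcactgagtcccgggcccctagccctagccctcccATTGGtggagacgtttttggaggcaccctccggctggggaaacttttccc
Col3a1: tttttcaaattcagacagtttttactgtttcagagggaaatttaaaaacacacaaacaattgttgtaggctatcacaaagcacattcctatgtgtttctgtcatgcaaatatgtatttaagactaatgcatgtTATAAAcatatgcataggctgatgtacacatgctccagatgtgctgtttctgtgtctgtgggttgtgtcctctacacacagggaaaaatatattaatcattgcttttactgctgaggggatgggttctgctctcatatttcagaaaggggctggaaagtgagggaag
CCAAT was found on either strand in 37.4% of the 32851 promoters of this length and TATAAA in 13.6%. Among 84 promoters of matrix genes the shares were 28.6% and 16.7%. These matches are a description of letters, not of binding.

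The medians of the other 4 matrix lists were also below 0. Of 15 other collagens tested, 11 had a lower estimate and the median was -1.11, and -0.49 without Het library 1. Col8a1, a short-chain collagen of vessel walls, had 18.7 and 47.1 in Hom and 278 and 129 in Het (-2.53 ± 0.70). Col6a3, a chain of the beaded filaments that anchor cells, had 64 and 157 in Hom and 652 and 269 in Het (-2.03 ± 0.61); Col6a1 and Col6a2, its partners, had -1.11 and -1.44. Their libraries show that the chains of type VI collagen were not high in the same Het library: Col6a3 was highest in Het library 1, while Col6a2 had 58.7 and 86.8 in Hom and 112 and 286 in Het.

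In the basement membrane list, 17 of 25 tested genes had a lower estimate, 7 of them at an unadjusted p under 0.05; the median was -0.53, and -0.29 without Het library 1 and -0.30 without Hom library 2. Hspg2, the proteoglycan perlecan, had 136 and 187 in Hom and 588 and 412 in Het (-1.62 ± 0.43). Lamb2, a laminin chain, had 69.4 and 106 in Hom and 216 and 248 in Het (-1.39 ± 0.41), with both Het libraries close to each other. Sparc, a collagen-binding protein, had 195 and 738 in Hom and 1111 and 2657 in Het (-2.01 ± 0.82). Col4a1, a chain of type IV collagen, had 133 and 106 in Hom and 1053 and 144 in Het, and its Het library 2 hardly exceeded Hom library 1. Chains with estimates above 0 included Col4a3 and the laminins Lama1, Lama3 and Lamb3, known from kidney or surface epithelia. Their estimates ran from 0.50 for Lama3 to 1.21 for Col4a3, and both Hom libraries exceeded both Het libraries for these 4 (named after their values were seen).

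Elastic fibre genes had 13 of 16 lower estimates and 0 genes with both Hom libraries above both Het libraries; the median was -1.36, and -0.69 without Het library 1. Fbln2, an adaptor of microfibrils, had 42.7 and 139.6 normalised CPM in Hom, against 576 and 476 in Het (-2.49 ± 0.56). Efemp2, needed to assemble elastin, had 18.7 and 95.2 in Hom and 122 and 351 in Het (-1.97 ± 0.77). Fbn1, the core of microfibrils, had 101 and 134 in Hom and 312 and 180.0 in Het (-1.05 ± 0.43). Elastin itself, Eln, had 37.4 and 45.3 in Hom and 238 and 55.2 in Het (-1.79 ± 0.77), a difference that Het library 1 carried. Among matrix glycoproteins, Fn1 (fibronectin) had 168 and 201 in Hom and 644 and 446 in Het (-1.56 ± 0.50). Thbs1, a thrombospondin that bridges cells and matrix, had 69.4 and 180.1 in Hom and 676 and 353 in Het (-2.02 ± 0.58). For its relative Thbs2 the values were 29.4 and 33.9 in Hom and 68 and 105 in Het (-1.43 ± 0.48). In all 3 of these glycoproteins the groups did not overlap. They overlapped for Spp1 and Bgn, the members of highest level per kb in this list. Spp1 had 26.7 and 211 in Hom and 46.0 and 1205 in Het (-2.36 ± 1.40). Bgn had 26.7 and 535 in Hom and 210 and 2053 in Het (-1.99 ± 1.51). Tnc, a tenascin of healing tissue, had 61.4 and 107 in Hom and 1159 and 176 in Het (-2.97 ± 0.86), and was far higher in Het library 1 than in Het library 2. The 23 glycoprotein and proteoglycan genes as a list had a median of -1.43, which was -0.21 without Het library 2.

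**Figure D2:**
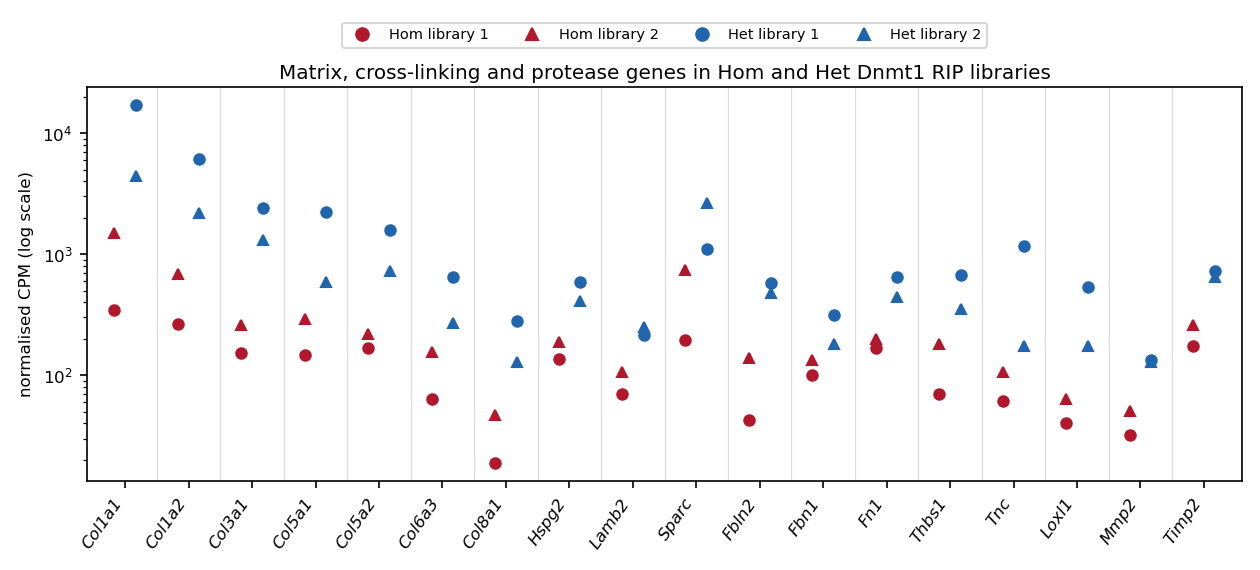
Normalised CPM (log axis) of 18 matrix, cross-linking and protease genes in the Hom (red, left in each column) and Het (blue, right) Dnmt1 RIP libraries; circles are library 1 and triangles library 2. In each of the 18 genes both red points lie below both blue points, but genes whose groups overlap, such as Spp1 and Bgn, were left out. Of the 90 tested matrix genes, 45 showed this separation. The distance between the blue points is large for Col1a1, Tnc and Loxl1 and small for Lamb2, Mmp2 and Timp2.

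Enzymes that fold, trim and cross-link collagen also had mostly lower estimates. Of 32 tested, 26 had a lower estimate in Hom and 13 had both Hom libraries below both Het libraries (40.6%, against 16.2% of all genes). The median was -0.81, and -1.36 without Hom library 2. Loxl1 (chromosome 9, 58287738 to 58313186, minus strand), a cross-linking oxidase of elastic fibres, had 40.02 and 63.2 normalised CPM in Hom, against 536 and 176 in Het (-2.75 ± 0.57). Lox, the related oxidase of collagen, had 21.3 and 126 in Hom and 997 and 312 in Het (-3.09 ± 1.15). Serpinh1, the collagen chaperone Hsp47, had 64 and 173 in Hom and 288 and 427 in Het (-1.57 ± 0.55). Pcolce, which speeds removal of the collagen propeptide, had 32 and 99 in Hom and 118 and 502 in Het (-2.19 ± 0.84). P4hb, a subunit of prolyl hydroxylase, had 123 and 181 in Hom and 232 and 406 in Het (-1.06 ± 0.52, unadjusted p = 0.07).

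Matrix proteases and their inhibitors had 22 of 30 lower estimates and a median of -0.67, and -0.34 without Het library 1. The gelatinase Mmp2 had 32 and 50.9 in Hom and 134 and 128 in Het (-1.61 ± 0.42) and its inhibitor and activator Timp2 had 173 and 259 in Hom and 728 and 646 in Het (-1.66 ± 0.44). In both of them the Het libraries lay close together. Adamts5, an aggrecan-cutting enzyme, had 56 and 107 in Hom and 136 and 452 in Het (-1.83 ± 0.61). The serine protease Htra1 gave the lowest estimate of the list, -5.02 ± 1.38, from 85.4 and 80.2 in Hom and 5276 and 102 in Het; it rests on Het library 1 alone. Mmp24, a membrane-bound member, was the 1 protease gene with a higher estimate in Hom at an unadjusted p under 0.05 (66.7 and 46.2 in Hom and 22 and 18.9 in Het, 1.44 ± 0.59; named after its values were seen).

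Receptors for matrix had a median nearer 0 than those of the matrix, cross-linking and protease lists. Among 26 integrins and other matrix receptors, 17 had a lower estimate, with a median of -0.33, and -0.12 without Het library 1. Itgb1, the shared beta chain of most collagen-binding integrins, had 101 and 99.96 in Hom and 548 and 208 in Het (-1.90 ± 0.64). Itgb5 had 56 and 82 in Hom and 498 and 157 in Het (-2.22 ± 0.58). Ddr2, a kinase that binds fibrillar collagen, had 24 and 53.8 in Hom and 116 and 116 in Het (-1.51 ± 0.46). Mrc2, which takes up collagen for degradation, had 53.4 and 131 in Hom and 326 and 270.0 in Het (-1.66 ± 0.50). Itga8 was the exception at an unadjusted p under 0.05, with 40.02 and 47.1 in Hom and 14 and 13.1 in Het (1.68 ± 0.71).

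Fibroblast receptors and identity factors had 17 of 22 lower estimates. Both Hom libraries lay below both Het libraries for 9 of the 22 (40.9%, against 16.2% of all genes) and above them for 0. Pdgfrb (chromosome 18, 61045150 to 61085061, plus strand), a receptor for platelet-derived growth factor, had 24 and 41.5 normalised CPM in Hom, against 180.1 and 129 in Het (-2.17 ± 0.45, unadjusted p = 0.000715). Gas6 (chromosome 8, 13465374 to 13494490, minus strand), a secreted ligand of the receptor Axl, had 104 and 145 normalised CPM in Hom, against 542 and 672 in Het (-2.27 ± 0.46). Axl had 45.4 and 90.5 in Hom and 334 and 116 in Het (-1.68 ± 0.58). The mesenchymal homeobox gene Prrx2 had 8.01 and 8.49 in Hom and 128 and 36.3 in Het (-3.25 ± 0.78). Pdgfra, the alpha receptor, was not lower: it had 66.7 and 106 in Hom and 82.1 and 68.2 in Het (0.22 ± 0.43; named after its values were seen). Without Het library 2 the median of this list was 0.016 in place of -0.78, and without Hom library 2 it was -1.66. Twist1, whose estimate was -2.35 ± 0.98, was high in Het library 1 only (24 and 25.5 in Hom and 242 and 16 in Het).

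Contractile genes had 21 of 28 lower estimates and 7 genes with both Hom libraries below both Het libraries (25%, against 16.2% of all genes). Their median was -0.31, but -0.05 without Hom library 1 and -1.27 without Hom library 2. Flna, an actin cross-linker, had 82.7 and 198 in Hom and 406 and 457 in Het (-1.60 ± 0.48). Flnc had 77.4 and 99 in Hom and 258 and 149.5 in Het (-1.19 ± 0.42). Tpm1, a tropomyosin, had 107 and 489 in Hom and 398 and 367 in Het (-0.35 ± 0.67) and overlapped between the groups. So did Myl6, with 163 and 1358 in Hom and 847 and 491 in Het (0.19 ± 1.00). These were the contractile genes of highest level per kb. In the insulin-like growth factor axis, whose binding proteins hold the ligands in the matrix, 15 of 17 tested genes had a lower estimate. For 4 of the 17 both Hom libraries lay below both Het libraries (23.5%, against 16.2% of all genes). The median was -0.36, and -0.01 without Het library 1. Igfbp3 had 10.7 and 40.5 in Hom and 482 and 206 in Het (-3.61 ± 0.93). Igfbp4 had 56 and 164 in Hom and 500.3 and 704 in Het (-2.42 ± 0.92). Igfbp7 had 18.7 and 35.8 in Hom and 244 and 34.8 in Het (-2.26 ± 0.98), and its groups overlapped. Of 44 TGF-beta and BMP genes, 27 had a lower estimate, 8 of them at an unadjusted p under 0.05. Their median was -0.22, and was 0.04 without Het library 1, -0.34 without Hom library 1, -0.54 without Het library 2 and -0.76 without Hom library 2. The ligand Tgfb1 had 37.4 and 54.7 in Hom and 132 and 141 in Het (-1.53 ± 0.45). The ligand Tgfb3 had 13.3 and 26.4 in Hom and 86.1 and 74 in Het (-1.92 ± 0.52), and for both ligands the Het libraries were close to each other. The BMP target Id1 had 13.3 and 30.2 in Hom and 264 and 53.7 in Het (-2.75 ± 0.76). Pmepa1, a TGF-beta target that restrains the pathway, had 42.7 and 98.1 in Hom and 434 and 235 in Het (-2.21 ± 0.52). Smad4, the shared mediator, was high in Het library 1 only (34.7 and 70.7 in Hom and 799 and 37.7 in Het). Markers of macrophages summed to 347 and 1684 normalised CPM in Hom and to 410.3 and 7121 in Het. Het library 1 was the higher Het library for most collagen and receptor genes named above. Het library 2 was the higher one for Sparc, Pcolce, Efemp2, Adamts5 and Col6a2, among others. The part of macrophages in these levels was not tested.

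Early response genes also had mostly lower estimates in Hom. Of 75 genes in 3 lists, 69 passed the filter, 59 had a lower estimate in Hom, 21 of them at an unadjusted p under 0.05, and 0 had a higher estimate at that p. Both Hom libraries lay below both Het libraries for 34 (49.3%, against 16.2% of all genes) and above them for 2. The median was -0.93, with -1.49 without Hom library 2 and -0.60 without Het library 1 as the extremes when 1 library was left out. The summed level covers the 74 of these genes present in the count data. It was 3688 and 6814 normalised CPM in Hom, against 11824 and 8529 in Het and 3773 and 6103 in WT. Here too the WT libraries lay with the Hom libraries below both Het libraries.

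AP-1 factors, the Fos, Jun and Maf proteins that bind DNA in pairs, had 12 of 14 lower estimates. Junb (chromosome 8, 84974484 to 84978718, minus strand) stood at 90.7 and 83.9 normalised CPM in Hom, against 728 and 328 in Het (-2.59 ± 0.49, unadjusted p = 0.000419). Both Hom libraries were alike and lay far below both Het libraries. Jund had 42.7 and 56.6 in Hom and 238 and 79.8 in Het (-1.64 ± 0.55). Fos had 37.4 and 67.9 in Hom and 162 and 107 in Het (-1.31 ± 0.44). Fosb had 61.4 and 59.4 in Hom and 262 and 84.2 in Het (-1.51 ± 0.56). Mafk, a small Maf protein, had 5.34 and 14.1 in Hom and 96.1 and 24.7 in Het (-2.44 ± 0.81), and its value in Hom library 1 rests on 2 counts. Jun, the founding member, did not share the direction, with 117 and 98.1 in Hom and 64 and 105 in Het (0.34 ± 0.41), and Atf2 was at 0.18; both were chosen after their values were seen, as the AP-1 genes with estimates above 0. Among Egr, Klf and Nr4a factors, Klf2 (chromosome 8, 72319033 to 72321656, plus strand), a factor induced by flow and statins, had 24 and 64.1 normalised CPM in Hom, against 276 and 166 in Het (-2.24 ± 0.57). The orphan receptor Nr4a1 had 107 and 75.4 in Hom and 374 and 112 in Het (-1.42 ± 0.59). Egr1, a zinc finger factor induced within minutes of stimulation, had 184 and 202 in Hom and 216 and 289 in Het (-0.39 ± 0.39): the groups did not overlap, but the difference was about as large as its standard error. The list as a whole had a median of -0.25, and of -0.49 without Het library 2 and -0.72 without Hom library 2.

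The remaining immediate early genes had 33 of 37 lower estimates, 12 of them at an unadjusted p under 0.05; the median was -0.93, and -1.76 without Hom library 2. Mcl1, a short-lived survival protein of the Bcl-2 family, had 112 and 77.3 in Hom and 873 and 261 in Het (-2.59 ± 0.60). Ier2, a small nuclear response protein, had 16 and 61.3 in Hom and 264 and 197 in Het (-2.47 ± 0.68). Its relative Ier5 had 53.4 and 64.1 in Hom and 580.4 and 132 in Het (-2.58 ± 0.64). Dusp1 (chromosome 17, 26505590 to 26562128, minus strand), the phosphatase that switches MAP kinases off, had 40.02 and 67.9 normalised CPM in Hom, against 182 and 157 in Het (-1.61 ± 0.41). Gadd45b, a stress protein, had 8.01 and 7.54 in Hom and 66 and 46.5 in Het (-2.82 ± 0.84). In Dusp1 and Gadd45b the libraries of a genotype differed by less than 2-fold, whereas Mcl1 and Ier5 were highest in Het library 1. Cebpb, a factor of the acute response, had 0 counts in Hom library 1 and 45.3 normalised CPM in Hom library 2, against 406 and 166 in Het.

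The promoters of Junb and Dusp1 are shown as examples of these genes, in the same window and build. In Junb (chromosome 8, 84978699 to 84978998, minus strand) capitals mark CCAAT at position -36 and TATAAA at position 0, counted from the RefSeq start. The GENCODE M21 start of Junb, at 84978718, lies downstream of the RefSeq start, and TATAAA lies before it. In Dusp1 (chromosome 17, 26508423 to 26508722, minus strand) capitals mark TGACGTCA, the letters of a cyclic AMP response element, at position -143. They also mark CACGTG, those of an E-box, at position -126. The GENCODE M21 start of Dusp1, the upper end of the span given above, lies upstream of the window shown.
Junb: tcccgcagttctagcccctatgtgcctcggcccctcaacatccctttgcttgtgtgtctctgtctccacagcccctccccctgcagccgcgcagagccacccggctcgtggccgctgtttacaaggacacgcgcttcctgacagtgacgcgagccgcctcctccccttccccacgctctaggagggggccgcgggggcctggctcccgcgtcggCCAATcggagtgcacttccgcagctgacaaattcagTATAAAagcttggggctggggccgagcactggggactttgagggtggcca
Dusp1: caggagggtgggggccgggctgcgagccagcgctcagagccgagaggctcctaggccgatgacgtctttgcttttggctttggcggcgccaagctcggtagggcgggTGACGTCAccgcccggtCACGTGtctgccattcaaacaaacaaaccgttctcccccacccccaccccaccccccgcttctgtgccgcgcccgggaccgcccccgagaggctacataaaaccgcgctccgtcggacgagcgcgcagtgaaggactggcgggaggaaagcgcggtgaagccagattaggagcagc
TGACGTCA was found in 1.79% of all promoters and in 5 of 73 promoters of early response genes (6.85%). CACGTG was found in 7.15% of all promoters and in 16 of the 73 (21.9%), and the AP-1 site TGANTCA in 7.81% and in 3 of the 73 (4.11%). All motifs were searched on both strands. The 73 windows include several starts for some genes, and no test was made of these shares.

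**Figure D3:**
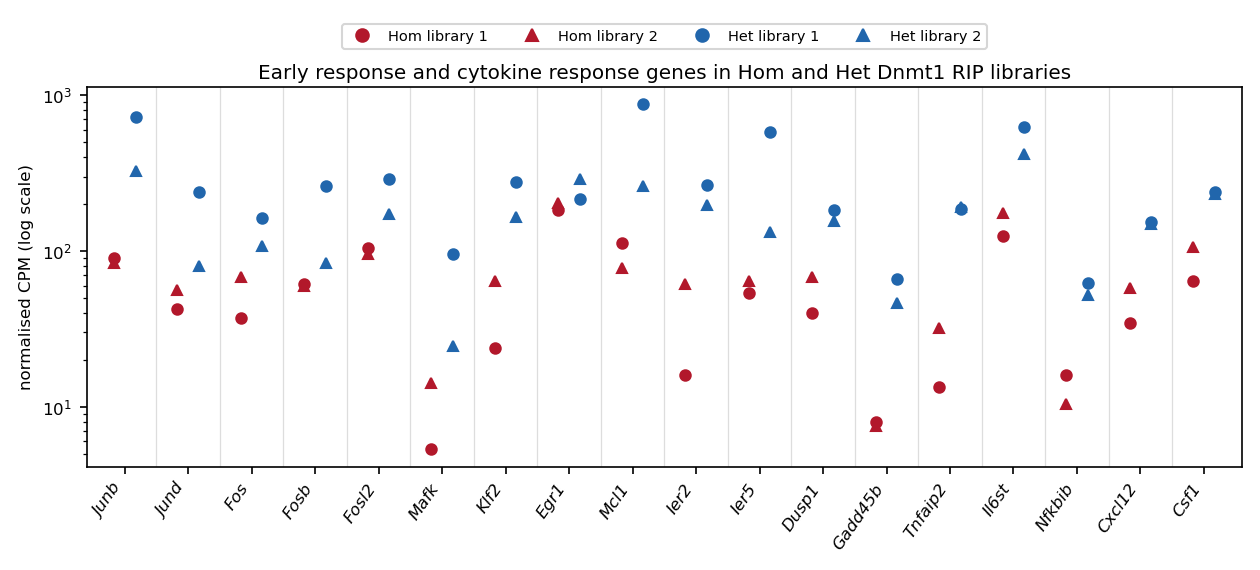
Normalised CPM (log axis) of 18 early response and cytokine response genes in the Hom (red, left in each column) and Het (blue, right) Dnmt1 RIP libraries; circles are library 1 and triangles library 2. Both red points lie below both blue points in all 18 genes, but genes whose groups overlap, such as Jun and Nfkbia, were left out. This separation was found for 34 of 69 tested early response genes and 18 of 32 cytokine and NF-kB genes. The narrowest gap is that of Egr1, and the Het points are close together for Tnfaip2, Cxcl12 and Csf1.

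Of 32 tested genes of the cytokine and NF-kB response, 26 had a lower estimate. At an unadjusted p under 0.05 there were 11 of these (34.4% of the 32, against 3.28% of all genes). For 18 of the 32 both Hom libraries lay below both Het libraries (56.2%, against 16.2%). The 44 listed genes summed to 1171 and 1557 normalised CPM in Hom, 2780 and 3924 in Het and 1106 and 4256 in WT. Unlike in the matrix and early response lists, WT library 2 exceeded both Het libraries. Tnfaip2 (chromosome 12, 111442469 to 111455018, plus strand), induced by tumour necrosis factor, had the smallest p of all genes: it stood at 13.3 and 32.1 normalised CPM in Hom, against 186 and 190.2 in Het (-2.94 ± 0.47, unadjusted p = 0.000118). Il6st, the gp130 receptor chain, had 125 and 174 in Hom and 626 and 419.6 in Het (-1.79 ± 0.46). Cxcl12, a chemokine of stromal cells, had 34.7 and 57.5 in Hom and 154 and 149.5 in Het (-1.67 ± 0.41). Nfkbib, an inhibitor of NF-kB, had 16 and 10.4 in Hom and 62 and 52.3 in Het (-2.16 ± 0.66). Csf1, the growth factor of macrophages, had 64 and 107 in Hom and 240.2 and 231 in Het (-1.44 ± 0.52). In these 5 genes both Hom libraries lay below both Het libraries. Nfkbia, the better known inhibitor, was high in Het library 2 only (29.4 and 67.9 in Hom and 34 and 446 in Het). The list's median was -1.19 and -0.50 without Het library 2, the library in which macrophage markers were high; their part in this list was not tested.

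Lists of genes that macrophages also express had medians that depended on that library. Lysosome genes had 25 of 30 lower estimates and a median of -0.85, but 0.14 without Het library 2 and -1.39 without Het library 1. Ctsd, a lysosomal protease, had 85.4 and 573 in Hom and 228 and 2263 in Het (-1.91 ± 1.25). Psap, the precursor of sphingolipid activators, had 819 and 914 in Hom and 757 and 1674 in Het (-0.49 ± 0.53). Glb1 and Lamp2 were lower in both Hom libraries than in both Het libraries. Glb1, a galactosidase, had 13.3 and 16 in Hom and 52 and 58.1 in Het (-1.87 ± 0.57). Lamp2, a membrane protein of lysosomes, had 61.4 and 75.4 in Hom and 120.1 and 174 in Het (-1.09 ± 0.42). Antigen presentation genes had a median of -0.52, and -0.03 without Het library 2, -0.91 without Het library 1 and -1.18 without Hom library 2. Interferon response genes had -0.52, and 0.13, -1.11 and -1.21 under the same omissions. H2-K1, a class I heavy chain, had 69.4 and 46.2 in Hom and 64 and 315 in Het, high in Het library 2 only. The macrophage markers had a median of -1.57 and of 1.11 without Het library 2; Lyz2 had 10.7 and 579 in Hom and 36 and 3172 in Het, and C1qa and Cd14 were at 0 counts in Hom library 1 while all 20 were detected in the other 3 libraries. Target genes of p53 had 17 of 23 lower estimates and a median of -0.33 (-0.68 without Hom library 2), with Cdkn1a, the cell cycle inhibitor p21, at 56 and 61.3 in Hom and 102 and 203 in Het (-1.38 ± 0.45) and Bax, a death effector, at 21.3 and 37.7 in Hom and 72 and 116 in Het (-1.61 ± 0.49).

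Some genes with the smallest p belong to none of these lists. Metrnl (chromosome 11, 121701544 to 121716306, plus strand), a secreted factor of skin and fat, had 13.3 and 11.3 normalised CPM in Hom, against 132 and 91.5 in Het (-3.18 ± 0.60). Ahnak2, a giant scaffold protein, had 40.02 and 46.2 in Hom and 688 and 147 in Het (-3.25 ± 0.68). Mxra7 had 21.3 and 17 in Hom and 332 and 52.3 in Het (-3.33 ± 0.81). Adamtsl5, a microfibril-associated protein, had 13.3 and 15.1 in Hom and 94.1 and 56.6 in Het (-2.36 ± 0.57). Evc2, a component of the primary cilium, had 24 and 24.5 in Hom and 126 and 68.2 in Het (-1.98 ± 0.48). Neat1, the scaffold RNA of nuclear paraspeckles, had 203 and 301 in Hom and 506 and 1610.0 in Het (-2.07 ± 0.60), while Malat1, an abundant nuclear RNA, had 9630.0 and 7864 in Hom and 12435 and 13173 in Het (-0.55 ± 0.65). Of the 15 genes that DESeq2 called, 7 were matrix genes (Col1a1, Col1a2, Col3a1, Col5a1, Col5a2, Fbln2 and Tnc) and 2 early response genes (Junb and Mcl1). The others were Ahnak2, Tnfaip2, Gas6, Loxl1, Scarf2 and Mxra7. DESeq2's largest change among them was Col1a1 (log2 fold change -3.58, adjusted p = 0.0158) and its smallest Gas6 (-2.30, adjusted p = 0.0106); all 15 were lower in both Hom libraries than in both Het libraries.

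On the other side, 158 genes had a higher estimate in Hom at an unadjusted p under 0.05. Prrg1 (chromosome X, 78449613 to 78583896, minus strand), a vitamin K-dependent membrane protein, had 34.7 and 54.7 normalised CPM in Hom, against 2.0 and 2.9 in Het (edgeR's unadjusted p = 0.00094). The Het values of Prrg1 rest on 1 and 2 counts, so no fold change is given. Gtdc1, a glycosyltransferase-like protein, had 74.7 and 88.6 in Hom and 24 and 13.1 in Het (2.16 ± 0.49). Dok6, a docking protein of neurotrophin receptors, had 66.7 and 67.9 in Hom and 20.01 and 16 in Het (1.90 ± 0.49). Mpv17l, a peroxisomal membrane protein, had 66.7 and 52.8 in Hom and 12 and 18.9 in Het (1.90 ± 0.54). A gap of more than 2-fold between the nearest libraries, with Hom above Het, was found for 189 of all tested genes (1.54%), among them all 4 of these. The 4 were named for a small p and groups that do not overlap, so their gap is no separate support. In Gtdc1, Dok6 and Mpv17l the libraries of a genotype differed by less than 2-fold. The WT libraries had 67.2 and 79.2 normalised CPM of Gtdc1, 62 and 59.4 of Dok6 and 62 and 52.8 of Mpv17l, near the Hom values. Klhl1, an actin-binding protein of neurons, had 58.7 and 44.3 in Hom and 14 and 7.26 in Het (2.27 ± 0.65). Trpc4, a cation channel, had 26.7 and 41.5 in Hom and 8.01 and 5.81 in Het (2.32 ± 0.67). Dnah5, a motor of cilia, had 74.7 and 73.6 in Hom and 26 and 29 in Het (1.42 ± 0.43). Trcg1 was read at 26.7 and 33 in Hom and 0 and 2.9 in Het, with 0 counts in Het library 1. In WT, Prrg1 had 15.5 and 42.9 normalised CPM, Klhl1 25.8 and 39.6, Trpc4 62 and 49.5, and Dnah5 82.7 and 92.4. Trcg1 had 10.3 and 13.2 in WT. Both WT libraries lay below both Hom libraries for Klhl1 and Trcg1, so WT was not near Hom in every gene. All were chosen for a difference between Hom and Het, and WT was not tested.

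Lists of neuronal and receptor genes had mostly higher estimates in Hom. All 65 listed synapse and ion channel genes passed the filter; 6 of 65 had a lower estimate, and 34 had both Hom libraries above both Het libraries (52.3%, against 18.5% of all genes). Differences were small, with a median of 0.32 (0.19 without Het library 2) and 0 genes at an unadjusted p under 0.05. Nrxn3, a presynaptic adhesion receptor, had 339 and 339 in Hom and 210.1 and 177 in Het (0.81 ± 0.41). Rims2, of the vesicle release zone, had 259 and 173 in Hom and 130.1 and 107 in Het (0.85 ± 0.40). Grm5, a glutamate receptor, had 219 and 204 in Hom and 136 and 126 in Het (0.69 ± 0.37). Summed over 65 genes, the level was 17152 and 15798 normalised CPM in Hom, against 14229.7 and 12278 in Het and 18302 and 15823 in WT. Clustered protocadherins, which give neurons their surface identity, had 2 of 21 tested lower and a median of 0.66, and 1.07 without Hom library 2. Of 56 listed, these 21 passed the filter. Of 1134 olfactory receptor genes only 34 passed it, with a median of 0.99, and 0.40 without Hom library 1. A gene of low level can pass through the libraries in which it is high, so both medians are partly shaped by the filter. Among all tested genes, the class of lowest mean level had a median of 0.23. Over all 1134 olfactory receptor genes the sum was 9323 and 6855 normalised CPM in Hom and 6246 and 5186 in Het. Olfr410 had 18.7 and 12.3 in Hom and 2.0 and 1.45 in Het, of which the Het values rest on 1 count each.

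**Figure D4:**
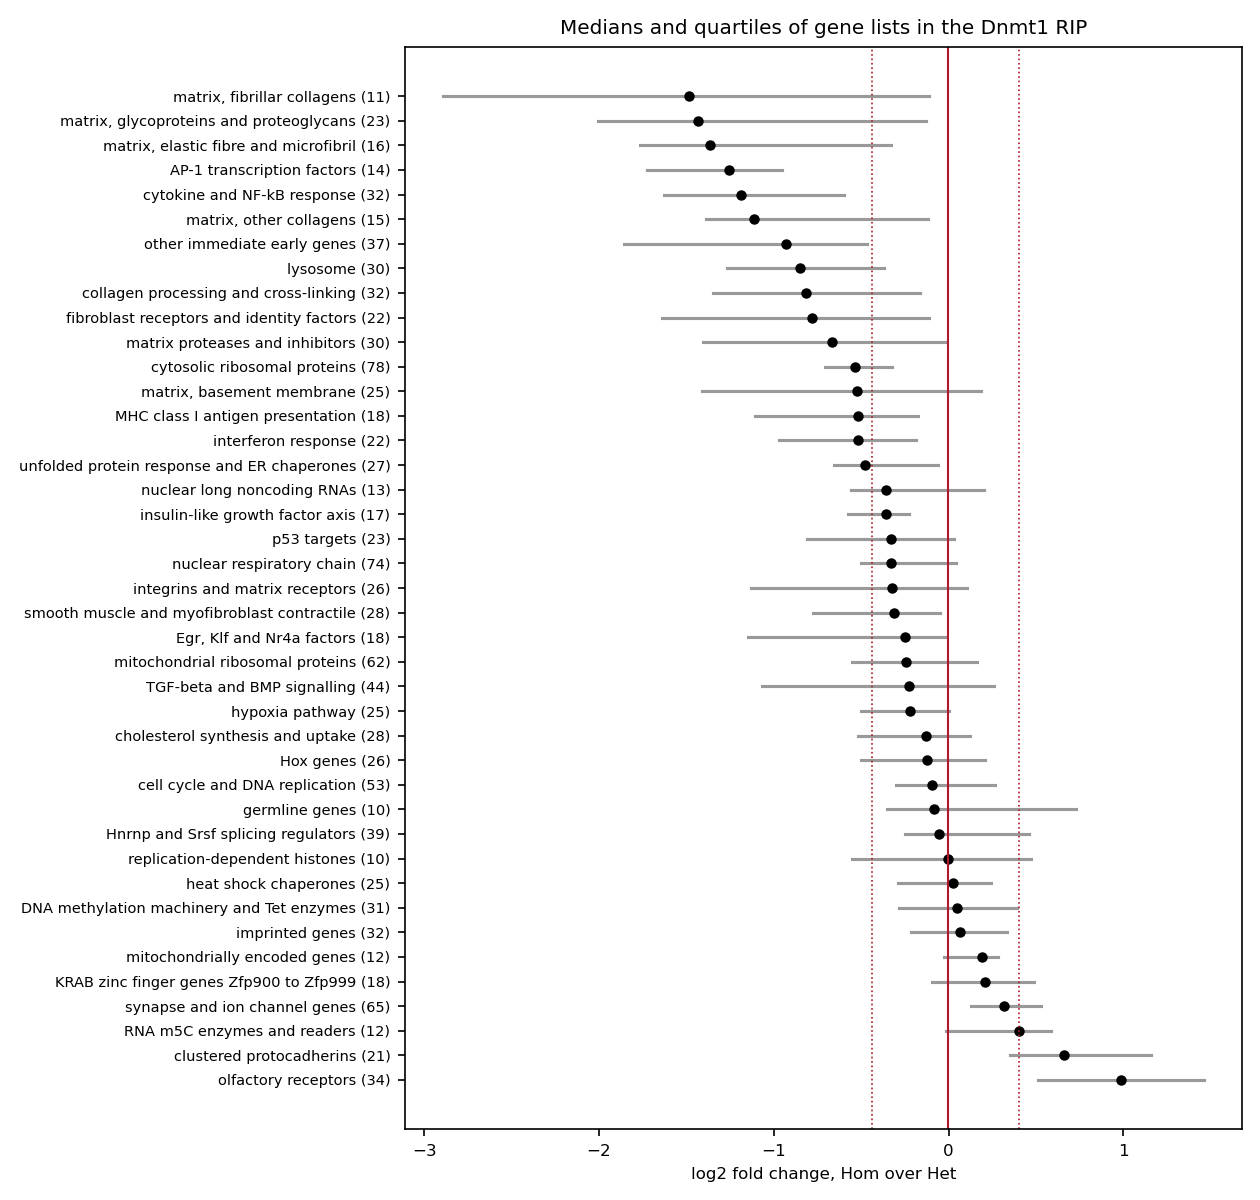
Median (black dot) and quartiles (grey line) of the log2 fold change, Hom over Het, for the gene lists other than cell type markers with at least 10 tested members, number tested in brackets; the red line is the median of all 12302 genes and the dotted lines their quartiles. Of the lists shown, fibrillar collagens lie lowest with a median of -1.49, and clustered protocadherins (0.66) and olfactory receptors (0.99) highest. Only 34 of 1134 olfactory receptor genes and 21 of 56 protocadherins passed the filter, which partly shapes these medians.

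The estimates also followed the length and base composition of genes. With the genes divided into 5 classes of equal size, the class with the shortest genomic span, up to 10345 bases, had a median log2 fold change of -0.19. The class with the longest, from 90800.0 bases, had 0.17. By the GC content of exons the medians were 0.16 in the lowest class and -0.18 in the highest. Genes not coding for protein, 250 in number, had a median of 0.29. These properties go together across genes and were not separated. After a correction for genomic span the synapse median was 0.17 in place of 0.32, while the matrix median was -1.06 and the early response median -0.78; after a correction for GC they were 0.29, -0.96 and -0.81.

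**Figure D5:**
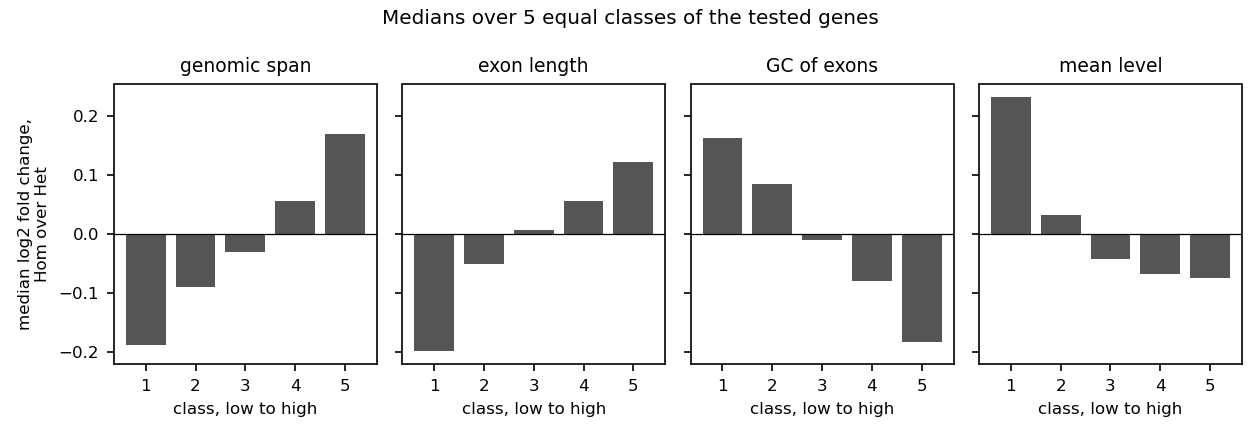
Median log2 fold change, Hom over Het (y axis), over 5 equal classes of the tested genes ordered by genomic span, exon length, GC content of exons and mean level in the 4 libraries (x axes, low to high). Medians increase with span and exon length and decrease with GC content, within 0.2 of 0 except for the class of lowest level (0.23).

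Dnmt1 RNA itself (chromosome 9, 20907209 to 20959888, minus strand) had 2482 and 11396 normalised CPM in Hom, against 2454 and 2358 in Het (1.53 ± 0.77, unadjusted p = 0.0778). Hom library 2 stood apart, and Hom library 1 differed little from the Het libraries; the WT libraries had 2724 and 4497. Dnmt1 is described as mutated rather than removed, so its RNA level does not check the genotype labels. Among 31 tested genes of DNA methylation and demethylation, 14 had a lower estimate and the median was 0.05, between -0.16 and 0.13 with 1 library left out. Dnmt3b, a methyltransferase that sets new methylation, had 58.7 and 38.7 in Hom and 12 and 21.8 in Het (1.47 ± 0.65, unadjusted p = 0.049). Uhrf1, the recruiter of Dnmt1, had 61.4 and 37.7 in Hom and 24 and 29 in Het (0.85 ± 0.64), and the histone methyltransferase Ehmt2 had 131 and 186 in Hom and 270.2 and 305 in Het (-0.85 ± 0.39). Imprinted and germline genes, which depend on DNA methylation for silencing, had medians near 0. Imprinted genes had 14 of 32 lower estimates. Both Hom libraries lay above both Het libraries for 9 of the 32 (28.1%, against 18.5% of all genes). They lay below them for 4 (12.5%, against 16.2%). The median of the imprinted genes was 0.06. The 10 germline genes of 36 that passed the filter had -0.08. Both medians changed sign when 1 library was left out, with 0.57 for germline genes without Het library 1 and -0.022 for imprinted genes without Hom library 1. Within the imprinted genes Grb10, a growth-restraining adaptor, had 32 and 50.9 in Hom and 80.1 and 126 in Het (-1.28 ± 0.45). Magel2 had 24 and 17.9 in Hom and 4.0 and 7.26 in Het (1.79 ± 0.78), and its value in Het library 1 rests on fewer than 3 counts. Peg3, a zinc finger gene expressed from the paternal copy, had 568 and 524 in Hom and 368 and 375 in Het (0.56 ± 0.42).

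Several abundant transcripts split the libraries across genotypes. Ybx1, an RNA-binding protein and reader of RNA m5C, had 139 and 2742 in Hom and 1717 and 221 in Het. Hnrnpa2b1, a splicing regulator, had 656 and 7356 in Hom and 3945 and 533 in Het. Fam221b had 26.7 and 9616 in Hom and 6082 and 105 in Het. All 3 were high in Hom library 2 and Het library 1 and low in the other pair, so their estimates (0.58, 0.84 and 0.64) stand between overlapping groups. Cytosolic ribosomal protein genes had 73 of 78 lower estimates but 0 with both Hom libraries below both Het libraries; their sum was 12239.6 and 24742 normalised CPM in Hom and 11348 and 39953 in Het, and their median of -0.54 was 0.73 without Het library 2 and -1.24 without Hom library 2. Mitochondrially encoded genes had a median of 0.19 (-0.18 without Hom library 1), and nuclear genes of the respiratory chain -0.33 (0.17 without Het library 2), with 0 members at an unadjusted p under 0.05 in either list.

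Another readout exists for both genotypes: 1 fibroblast library each of messenger RNA recovered with an antibody against 5-methylcytosine (m5C). With 1 library per genotype there is no test, and in each of 31017 genes the count of the Hom m5C library was at or below that of a WT m5C library. Whether these libraries share reads was not tested, so the Hom m5C values may not come from a separate library. Over 10483 genes with enough counts in both, the log2 ratio of Hom over Het in the m5C RIP and the log2 fold change of the Dnmt1 RIP had Pearson's r of 0.06 and Spearman's rho of 0.07, and 52.2% had the same sign; genes are not independent replicates. Matrix genes were lower in Hom in this readout too: the sum was 56151 CPM in Hom and 71858 in Het, with a median log2 ratio of -0.40 and 63 of 90 ratios below 0, against a median of 0.12 and 5026 of 12302 over all genes. Col3a1 had 2717 CPM in Hom and 3729 in Het, Fbln2 717 CPM in Hom and 1597 in Het and Tnc 346 CPM in Hom and 782 in Het. Members with the other direction included Col1a1, with 17550.5 CPM in Hom and 16008 in Het. Eln, elastin, had 325 CPM in Hom and 45.7 in Het, the opposite of its direction in the Dnmt1 RIP. Early response genes ran the other way, with a sum of 12319.6 CPM in Hom and 8284 in Het and a median of 0.50 in the log2 ratio. Junb had 416 CPM in Hom and 230.1 in Het, Klf2 338 CPM in Hom and 167 in Het and Fos 203 CPM in Hom and 108 in Het. Macrophage markers summed to 16966 CPM in the Hom m5C library and 9857 in the Het one.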

How the data were processed

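The Dnmt1 RIP tables hold counts of reads per gene, deposited by the authors for 6 fibroblast libraries; per the submitters' processing notes, Trim Galore 0.4.1, HISAT2, featureCounts and the mm10 build were used. The labels name no annotation and no strand setting, so antisense and overlapping genes cannot be told apart. These tables had no entries outside genes; in the fibroblast m5C tables the entries that name no gene were left out, of which reads not aligned made up 89.5% of the Hom table and 79.5% of the Het table.

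Lars2, Gm42418, Gm26917 and Gm10800 were removed, and genes were kept by filterByExpr (at least 10 counts). TMM scaling and the quasi-likelihood test of edgeR 4.0.16 in R 4.3.3 compared Hom with Het in a fit that also held the WT libraries (3 residual degrees of freedom), with Benjamini-Hochberg adjustment. DESeq2 1.42.0, other scalings and filters, GC and gene span corrections, a replicate block and leaving out each library were alternatives. The script was tested on simulated data with known changes. Fold changes are Hom over Het; ± is the standard error. The m5C readout used CPM computed from the authors' counts, with 2 counts added before the log2 ratio.

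Genes were named by a rule: the 15 per direction with the smallest p among genes averaging 5 CPM or more whose groups do not overlap, and in each list up to 6 members of smallest p and up to 2 of highest CPM per kb; genes outside it are marked as chosen after their values were seen. The gene lists and the comparison were chosen with earlier results of these data known. Gene positions are GENCODE M21 on mm10.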

Additional observations from a re-analysis of the deposited data

Results flagged for a closer look

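AP-1 transcription factors were lower in Hom in the Dnmt1 RIP and higher in Hom in the m5C RIP. Their summed level was 851 and 1359.8 normalised CPM in Hom and 2732 and 2467 in Het in the Dnmt1 RIP, a log2 difference of -0.86 between the nearest libraries. In the m5C RIP it was 3419.7 CPM in Hom and 2180.1 in Het, a log2 ratio of 0.65 with 1 library per genotype. The Hom m5C count was at or below that of a WT m5C library in every gene, so the Hom m5C library may not be a separate one. Neither this nor the difference between the readouts was tested.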

How the results depend on the processing

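edgeR called 0 genes in most alternatives but 119 with no filter on low counts (112 of them among the genes tested above, 2 higher in Hom, and including the 15 of DESeq2) and 0 to 47 when 1 library was left out, with 47 without Het replicate 2. At an unadjusted p under 0.05, genes lower in Hom numbered 885 with no filter and 153 to 577 with 1 library left out. Genes higher in Hom at that p numbered 253 with library totals alone, 376 with no filter, 251 with a mean of at least 5 CPM, 92 in DESeq2, and 84 to 232 with 1 library left out. The matrix median was -0.88 with library totals alone, -1.10 with no filter, -1.07 with the Hom and Het libraries alone, -0.96 with the GC correction and -1.06 with the gene span correction, which was chosen after seeing the data; it was -1.33 to -0.66 with 1 library left out, and the early response median -1.49 to -0.60. Library totals alone moved the median of all genes by 0.13. The cause of these shifts was not tested.

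The medians of 23 of 52 lists changed sign under at least 1 alternative. Those larger than the spread between replicate libraries were of cholesterol genes with library totals alone (0.0205) and, over fits that each left out 1 library, of fibroblast receptors and identity factors (-1.66 to 0.016), hypoxia genes (-0.53 to 0.11), lysosome genes (-1.39 to 0.14) and RNA m5C genes (-0.21 to 0.54). The other 18 were within that spread; with 1 library left out, macrophage markers ranged over -3.25 to 1.11, cytosolic ribosomal proteins over -1.24 to 0.73, interferon genes over -1.21 to 0.13 and TGF-beta and BMP genes over -0.76 to 0.04. Alternatives were compared for 116 of the genes named here, and 105 of these never changed sign. The others ranged, with 1 library left out, over -0.10 to 0.34 for Atf2, -3.90 to 0.49 for Ctsd, -6.87 to 5.52 for Fam221b, -1.80 to 2.91 for Hnrnpa2b1, -7.23 to 2.99 for Lyz2, -3.14 to 0.52 for Nfkbia, -0.20 to 0.46 for Pdgfra, -0.97 to 0.15 for Psap, -3.92 to 0.52 for Smad4, -1.87 to 0.32 for Tpm1 and -2.83 to 2.71 for Ybx1.

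Hom and Het libraries of the same number deviated together with r = 0.06 and share only a number. With the replicate block 0 genes were called, 461 had a lower and 161 a higher estimate at an unadjusted p under 0.05, and both the matrix and the early response median were -1.01; Ybx1, Hnrnpa2b1 and Fam221b changed sign, to -1.43, -0.71 and -5.60.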

Other observations

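Unfolded protein response and endoplasmic reticulum chaperone genes had 21 of 27 lower estimates in Hom and a median of -0.48. Heat shock chaperones had 12 of 25 and a median of 0.03, cell cycle and DNA replication genes 31 of 53 and -0.10, and Hox genes 14 of 26 and -0.13. The Hox median was 0.93 without Het library 1 and -0.76 without Hom library 2. Endothelial, keratinocyte and skeletal muscle markers had 0 lower estimates among 8, 6 and 6 tested, with medians of 0.34, 0.49 and 0.92. Skeletal muscle markers summed to 520.3 and 1144 normalised CPM in Hom and 506 and 363 in Het.

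Splicing regulators of the Hnrnp and Srsf families split the libraries as Ybx1 did: they summed to 5868 and 20779.5 normalised CPM in Hom, 15397 and 6896 in Het and 6678 and 19742 in WT. Hom library 2, Het library 1 and WT library 2 were the high ones. RNA m5C enzymes and readers, a list that holds Ybx1, summed to 749.8 and 3711 in Hom, 2509.7 and 807 in Het and 703 and 3659 in WT.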
